A study of Sus scrofa with 70 samples.

Results

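The 8 genes described here carry out polyol and inositol metabolism: AKR1B1, SORD, KHK and SLC2A5 on the side of sorbitol and fructose, and ISYNA1, IMPA1, IMPA2 and SLC5A3 on the side of inositol. They were chosen by name from 35,521 genes and gene labels with a value, by a rule that uses no level though earlier results of these data were known, and the abundance of each was the sum over its transcripts in TPM, an abundance per transcript length and per fixed total, so that levels of different genes can be set side by side. The tissues were bulbourethral, prostate and vesicular gland, with epididymis and testis, of untreated boars aged 12 months, from the Banna mini-pig inbred line (BMI) and from the Diannan small-ear pig (DSE). BMI is an inbred line derived from DSE, produced by repeated mating of close relatives, and the labels name no engineered allele and no treatment in any group. Each gland of each breed gave 3 short-read RNA-seq libraries (30 in all) and 1 Iso-seq library of full-length transcripts (10 in all). Nothing in the labels ties a library to a particular animal, so the p-values below measure the spread between these libraries.

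In the polyol pathway aldose reductase turns glucose into sorbitol and sorbitol dehydrogenase oxidises sorbitol to fructose, and this route is the classical source of the fructose that male accessory glands release into semen. Inositol is made from glucose 6-phosphate by inositol 3-phosphate synthase followed by an inositol monophosphatase, or is taken up from outside by sodium-coupled carriers. The vesicular gland is a main source of both in semen, and boar vesicular secretion is known for its large amount of inositol. Aldose reductase and the sodium/inositol carrier also serve in the accumulation of osmolytes by cells in hypertonic surroundings.

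One pair of libraries stood apart before any of the 8 genes was considered. The RNA-seq library of BMI prostate gland replicate 2 held 295,241 TPM of spermadhesins (SPMI, AWN and PSP-I, the chief secretory proteins of the boar vesicular gland, 3 of the 5 markers on the list having an entry), against 1.89 to 17.3 TPM in the other 5 prostate libraries and 349,572 to 480,244 TPM in vesicular gland. Its prostate marker sum, which was nearly all MSMB, was 88,947 TPM against 104,142 to 179,514 TPM in the other 5, so that both secretions were present in it. The BMI prostate Iso-seq library likewise held 8458 full-length spermadhesin reads, against 0 in the DSE prostate library, and 60 prostate marker reads against 1275. In testis, DSE replicate 2 held 25,546 TPM of germ cell markers against 76,261 to 117,007 TPM in the other 5, and 61,438 TPM of Leydig cell markers against 17,754 to 31,434 TPM. The size factors of the libraries, from the median of ratios over genes seen in all 30, were 0.385 to 0.953 in vesicular gland and 0.754 to 1.65 elsewhere. The 10 most abundant transcripts took 47.4% to 64.7% of all TPM in vesicular gland and 41.4% to 56.2% in prostate gland. Their share was 26.4% to 42.5% in bulbourethral gland, 12.65% to 19.9% in testis and 9.24% to 22.0% in epididymis. In bulk tissue, fewer cells of a type and less RNA of a gene per cell cannot be told apart.

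**Figure D1:**
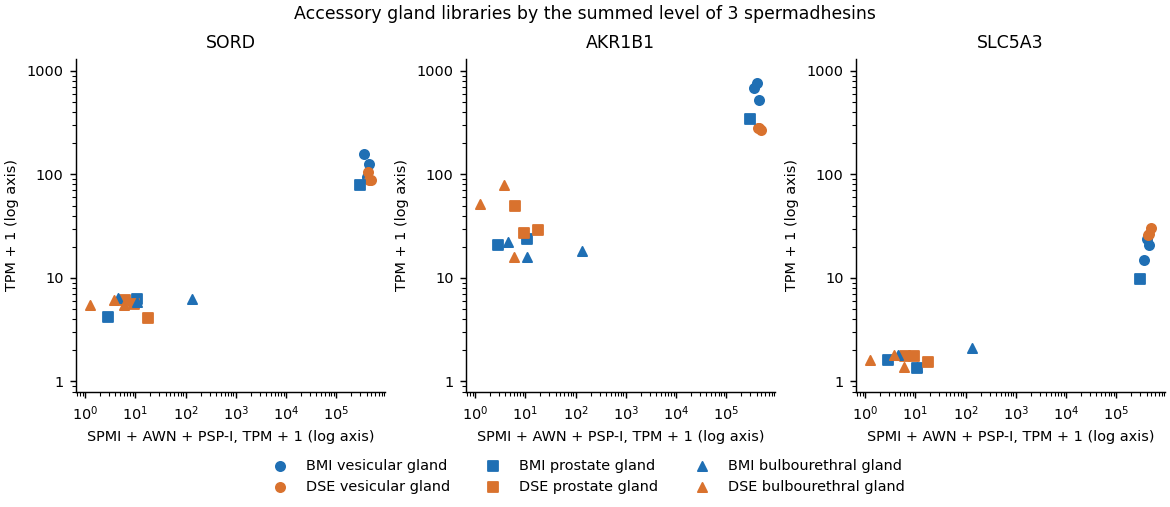
Summed TPM of the spermadhesins SPMI, AWN and PSP-I on the horizontal log axis against SORD, AKR1B1 and SLC5A3 on the vertical log axes, each as TPM + 1, with 1 point per RNA-seq library of the 3 accessory glands. BMI prostate gland replicate 2, at 295,241 TPM of spermadhesins, lies beside the vesicular libraries and apart from the other 5 prostate libraries, which hold at most 17.3 TPM.

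SORD, AKR1B1 and SLC5A3 were the 3 genes that stood higher in vesicular gland when set against the mean of the remaining glands, while SLC2A5, ISYNA1 and IMPA1 stood lower there. A gene was called different where limma's moderated test on log2(TPM + 1) gave an adjusted p below 0.05 over all genes tested and a log2 difference of at least 1. By this rule 6 of the 8 were called in vesicular gland, where 33.0% of 19,786 genes were called, 2.95% as higher and 30.1% as lower. The median gene lay at -0.69 on the log2 scale in this contrast, and at -0.20 after division by size factors, so the difference of each gene in this contrast is also given with size factors.

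**Figure D2:**
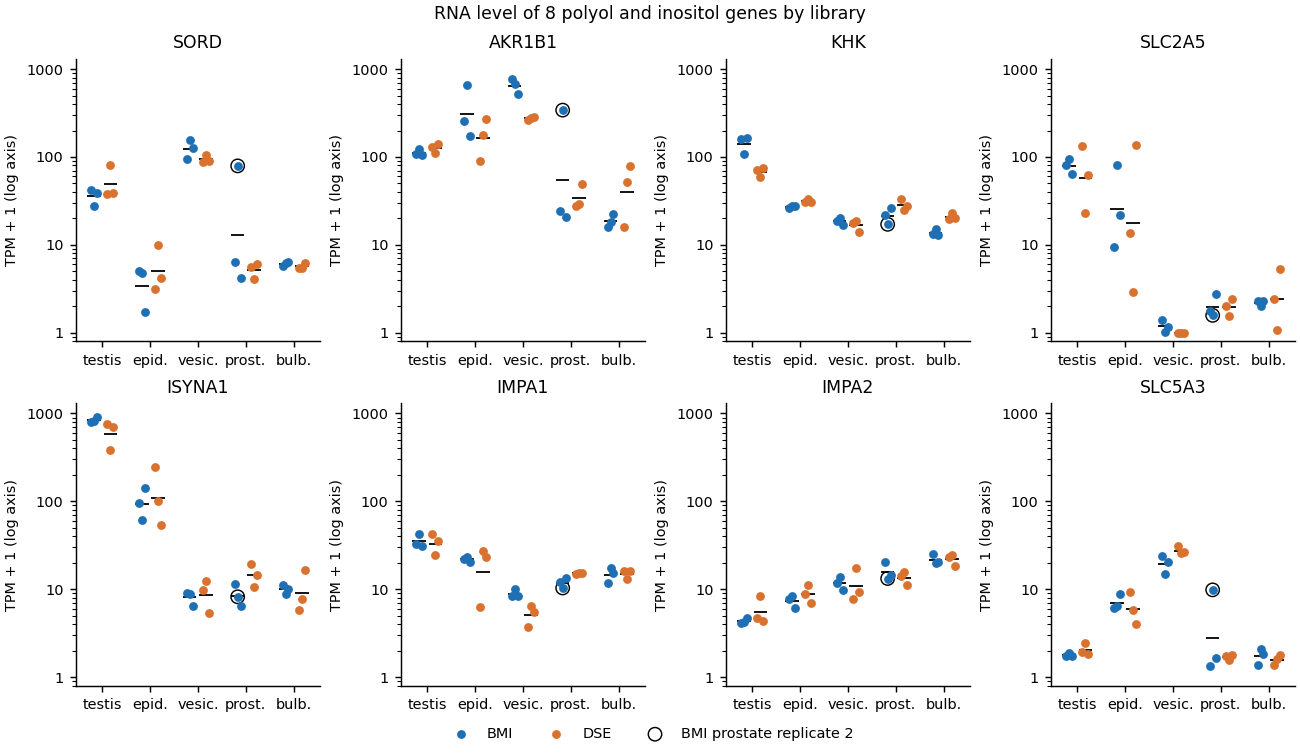
TPM + 1 of the 8 genes on a log axis in each gland, with 1 point per RNA-seq library, 3 for each breed, dashes at the mean of the log values and a ring around BMI prostate replicate 2. SORD and SLC5A3 are highest in vesicular gland and ISYNA1 and KHK in testis, and the ringed points of SORD (78.1 TPM), AKR1B1 (340 TPM) and SLC5A3 (8.82 TPM) stand apart from the other prostate libraries.

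SORD encodes sorbitol dehydrogenase, the enzyme that forms fructose from sorbitol (ENSSSCG00000004679, Sscrofa11.1, chromosome 1, 126,654,480 to 126,701,138, minus strand). In vesicular gland its level was 92.7, 156 and 125 TPM in BMI and 86.9, 104 and 88.0 TPM in DSE. In testis it was 41.3, 26.3 and 38.1 TPM in BMI and 37.3, 79.8 and 37.7 TPM in DSE. Every vesicular library thus lay above every testis library, the highest of which was the DSE replicate 2 that was short of germ cell markers. Epididymis held 0.699 to 9.07 TPM (median 3.49) and bulbourethral gland 4.44 to 5.35 TPM (median 4.98). The prostate gland held 3.10 to 5.31 TPM in 5 libraries and 78.1 TPM in BMI replicate 2. These 3 glands did not reach the testis range except in that library. The mean in vesicular gland was 109 ± 27.0 TPM (SD, n = 6), and the difference from the other 4 glands was 3.48 ± 0.37 on the log2 scale (SE, limma adjusted p 1.8e-08), 4.31 with size factors and 3.65 without BMI prostate replicate 2. Against testis alone, its neighbour in the order of glands, SORD was higher by 1.35 ± 0.47 (SE, limma adjusted p 0.012), and by 2.24 with size factors. The single Ensembl transcript of SORD carried 2.23% of its vesicular TPM and 1.21% of its testis TPM on average. In both glands the level thus rested on isoforms from Iso-seq. With Ensembl transcripts alone, SORD in testis was at -0.16 against the other 4 glands, where it was 1.79 with all transcripts. In that setting the vesicular difference of SORD from the other 4 was 1.24, which still passed. The means of that transcript were low, at 2.34 TPM in vesicular gland and 0.553 TPM in testis.

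AKR1B1 encodes aldose reductase, which forms the sorbitol (ENSSSCG00000040608, chromosome 18, 14,593,540 to 16,534,913, plus strand). Its level in vesicular gland was 766, 680 and 523 TPM in BMI and 265, 280 and 282 TPM in DSE. In epididymis it was 259, 655 and 171 TPM in BMI and 88.2, 176 and 271 TPM in DSE. The vesicular and epididymal ranges therefore overlapped, and the epididymal library with 655 TPM stood far above its group. Testis held 105 to 138 TPM with a median of 116 TPM, prostate gland 19.6 to 48.8 TPM in 5 libraries and 340 TPM in BMI replicate 2, and bulbourethral gland 14.8 to 77.8 TPM. AKR1B1 ranked 130th of 35,521 genes by mean TPM in vesicular gland, where SORD ranked 493rd. Against the other 4 glands it was higher by 2.50 ± 0.39 on the log2 scale (SE, limma adjusted p 4.8e-06), by 3.36 with size factors and by 2.66 without BMI prostate replicate 2. Against epididymis the difference of 0.92 did not pass the test (limma adjusted p 0.11), whereas with size factors it was 2.01 and passed.

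SLC5A3 encodes the sodium/myo-inositol cotransporter, which carries inositol into cells (ENSSSCG00000034167, chromosome 13, 197,688,324 to 197,723,320, plus strand). Vesicular gland held 22.6, 13.8 and 19.6 TPM in BMI and 29.7, 24.8 and 25.4 TPM in DSE. Epididymis, next in order, held 2.97 to 8.17 TPM, so that the lowest vesicular library exceeded every epididymal one. Testis held 0.724 to 1.46 TPM, bulbourethral gland 0.367 to 1.11 TPM, and prostate gland 0.352 to 0.780 TPM in 5 libraries with 8.82 TPM in BMI replicate 2. The vesicular mean of 22.6 ± 5.46 TPM (SD, n = 6) was higher than the other 4 glands by 3.16 ± 0.25 on the log2 scale (SE, limma adjusted p 4.2e-10), by 3.94 with size factors and by 3.27 without BMI prostate replicate 2. Against epididymis alone the difference was 1.84, which also passed.

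The 250 bases before the 5′ end of the most-read Iso-seq isoform are shown for these 3 genes because they share the high vesicular level. The sequence is that of the RefSeq genome of Sscrofa11.1, in which 90.9% of 312,991 introns of the deposited annotation began with GT or GC and ended with AG. The windows are chr1:126701041-126701290 (minus strand) for SORD, chr18:14733804-14734053 (plus strand) for AKR1B1 and chr13:197688074-197688323 (plus strand) for SLC5A3, each written 5′ to 3′ on the gene's strand. The Iso-seq 5′ end lay 44 bases downstream of the nearest RefSeq start for SORD, 38 bases upstream for AKR1B1 and 308 bases upstream for SLC5A3. Capitals mark TGGAAA (the core of the tonicity element bound by NFAT5), AGAACA (an androgen receptor half-site), TATAAA (the TATA box) and GGGCGG (the GC box) on either strand, with no overlap between matches.
SORD: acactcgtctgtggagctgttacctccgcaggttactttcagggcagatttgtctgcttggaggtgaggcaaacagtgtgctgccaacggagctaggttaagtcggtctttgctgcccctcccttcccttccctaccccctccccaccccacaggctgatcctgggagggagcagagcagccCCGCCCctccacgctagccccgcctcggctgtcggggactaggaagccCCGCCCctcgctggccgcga
AKR1B1: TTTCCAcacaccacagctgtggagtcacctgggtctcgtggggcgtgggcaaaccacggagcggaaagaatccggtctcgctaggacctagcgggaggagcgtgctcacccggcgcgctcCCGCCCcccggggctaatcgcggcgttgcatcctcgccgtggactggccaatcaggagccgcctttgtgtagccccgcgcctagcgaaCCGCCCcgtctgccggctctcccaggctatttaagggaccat
SLC5A3: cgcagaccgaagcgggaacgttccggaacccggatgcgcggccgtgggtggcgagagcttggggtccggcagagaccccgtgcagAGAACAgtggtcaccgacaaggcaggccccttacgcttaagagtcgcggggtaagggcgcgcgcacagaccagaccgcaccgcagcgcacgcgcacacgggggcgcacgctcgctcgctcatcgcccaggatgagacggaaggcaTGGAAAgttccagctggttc
TGGAAA stood at -20 to -15 in SLC5A3 and, on the opposite strand, at -250 to -245 in AKR1B1, counted back from the 5′ end, and 15.7% of the windows of 14,872 genes hold it. AGAACA stood once in SLC5A3, at -165 to -160, against 9.29% of windows. GGGCGG stood in the windows of SORD and AKR1B1, and in 7 of the 8 genes, against 60.1% of windows, and SLC5A3 had no match. TATAAA was in none of the 8 windows, against 6.61% of all. The GC content was 64.4% for SORD, 66.4% for AKR1B1 and 67.6% for SLC5A3, beside a median of 62.0% over all windows.

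KHK encodes ketohexokinase, which phosphorylates fructose for further breakdown (ENSSSCG00000008556, chromosome 3, 112,021,098 to 112,031,620, minus strand). It was not raised in vesicular gland, where it held 17.8, 19.3 and 15.7 TPM in BMI and 16.8, 17.8 and 13.1 TPM in DSE. Testis held the most, with 159, 107 and 164 TPM in BMI and 70.8, 57.6 and 73.2 TPM in DSE. The testis range lay above that of each other gland, as epididymis held 25.4 to 32.3 TPM, prostate gland 16.1 to 32.3 TPM and bulbourethral gland 12.0 to 22.2 TPM. In testis against the other 4 glands, 47.4% of genes were called, and KHK was higher by 2.19 on the log2 scale. In vesicular gland its difference was -0.91 ± 0.11 on the log2 scale (SE), under the fold that the rule asks for, and -0.09 with size factors.

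SLC2A5 encodes GLUT5, the fructose carrier of the cell membrane (ENSSSCG00000039651, chromosome 6, 69,507,830 to 69,536,846, minus strand). In vesicular gland it held 0.393, 0.0277 and 0.167 TPM in BMI and was listed at 0 in the 3 DSE libraries. Testis held 80.0, 94.1 and 63.3 TPM in BMI and 132, 22.1 and 60.9 TPM in DSE. In epididymis the level ranged widely, from 1.89 to 136 TPM with a median of 16.9 TPM. Every vesicular library thus lay below every other library of the series except DSE bulbourethral replicate 2, at 0.0825 TPM, which fell inside the vesicular range. The prostate libraries held 0.536 to 1.74 TPM and the bulbourethral ones up to 4.26 TPM. The gene was lower in vesicular gland by 3.04 on the log2 scale of TPM + 1 (limma adjusted p 7.7e-06), or by 2.85 with size factors, and was higher in testis by 4.40 and in epididymis by 2.32 against the respective other 4 glands. With Ensembl transcripts alone, leaving out Iso-seq isoforms, the vesicular difference was -0.83, under the required fold, and the testis difference -0.10.

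ISYNA1 encodes inositol 3-phosphate synthase, the first and rate-limiting enzyme of inositol synthesis (ENSSSCG00000040524, chromosome 2, 59,360,088 to 59,367,005, plus strand). Testis held 805, 810 and 907 TPM in BMI and 752, 385 and 702 TPM in DSE, which placed it 152nd of all genes in that gland by mean TPM. Vesicular gland held 8.12, 7.88 and 5.44 TPM in BMI and 8.85, 11.3 and 4.35 TPM in DSE. Testis was thus above every other library, and the lowest testis value came from DSE replicate 2. Epididymis held 52.2 to 246 TPM, prostate gland 5.38 to 18.4 TPM and bulbourethral gland 4.83 to 15.5 TPM, so that the 3 accessory glands overlapped. ISYNA1 was higher in testis by 5.35 and lower in vesicular gland by 2.65 ± 0.25 on the log2 scale (SE, limma adjusted p 3.7e-09). With size factors the vesicular difference was -1.86, and it still passed.

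IMPA1 and IMPA2 encode the inositol monophosphatases, which release free inositol from its phosphate (IMPA1, ENSSSCG00000033791, chromosome 4, 54,935,860 to 54,984,238, plus strand, and IMPA2, ENSSSCG00000024162, chromosome 6, 97,277,648 to 97,309,777, minus strand). IMPA1 held 23.3 to 42.0 TPM in testis (median 32.6) and 2.69 to 9.18 TPM in vesicular gland (median 6.34), with the medians of the other glands between. Every vesicular library lay below every testis, prostate and bulbourethral library, and the epididymal library at 5.33 TPM fell inside the vesicular range. Its difference in vesicular gland was -1.49 on the log2 scale and passed, but -0.73 with size factors, which did not reach the required fold. IMPA2 ran the other way, with 3.10 to 7.37 TPM in testis, 6.75 to 16.5 TPM in vesicular gland and 17.3 to 23.8 TPM in bulbourethral gland. The bulbourethral libraries lay above all vesicular ones, and IMPA2 was called higher there by 1.28 on the log2 scale, where 20.4% of genes were called. In vesicular gland its difference of 0.09 did not pass (limma adjusted p 0.59), and with size factors it was 0.88, under the required fold.

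Testis was the gland with the most of these genes called higher than in the other 4. There 5 of the 8 were higher (SORD, KHK, SLC2A5, ISYNA1 and IMPA1), against 34.6% of genes, and 2 lower (IMPA2 and SLC5A3), against 12.7%. In epididymis, where 21.7% of genes were called (15.1% higher and 6.57% lower), AKR1B1, SLC2A5 and ISYNA1 were higher, by 1.35, 2.32 and 1.86 on the log2 scale, and SORD was lower, at -2.37. The AKR1B1 difference in epididymis was 0.84 with size factors and did not pass. In prostate gland 5 of the 8 were lower and none higher, against 16.5% of genes called (3.70% higher and 12.8% lower), and SORD there was at -1.16 with all libraries and -1.82 without BMI replicate 2. Without BMI replicate 1 or 3, which leaves replicate 2 the greater weight, SORD (-0.91 and -0.76) and SLC5A3 (-0.84 and -0.91) lost their calls. In bulbourethral gland 5 were lower, among them AKR1B1 at -2.45, and IMPA2 was higher, against 12.0% and 8.46% of genes. Between prostate and bulbourethral gland limma called 0 of the 8, against 7.65% of genes. In that pair 2 of the 8 (KHK and IMPA2) had an unadjusted p below 0.05, as did 5719 of 19,786 genes. Testis differed from epididymis in 5 of the 8 (51.0% of genes called), from prostate gland in 7 (48.9%) and from bulbourethral gland in 7 (49.2%). Epididymis differed from prostate gland in 4 (21.4% of genes called), with AKR1B1, SLC2A5, ISYNA1 and SLC5A3 higher in epididymis, and from bulbourethral gland in 5 (21.4%).

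Set against each gland in turn, vesicular gland differed from testis in all 8 genes, against 53.0% of genes called (8.04% higher and 44.9% lower). SLC5A3, AKR1B1, SORD and IMPA2 were higher, by 3.59, 1.83, 1.35 and 1.20 on the log2 scale, and ISYNA1, SLC2A5, KHK and IMPA1 were lower, at -6.40, -5.95, -2.48 and -2.34. Against prostate gland, where 14.8% of genes were called (3.43% higher and 11.4% lower), SORD, SLC5A3 and AKR1B1 were higher by 3.72, 3.41 and 3.29. Without BMI prostate replicate 2 these differences were 4.37, 3.86 and 3.94, and IMPA1 was then also called, at -1.05. Against bulbourethral gland, with 27.8% of genes called (4.13% higher and 23.6% lower), the same 3 genes were higher, by 4.18 for SORD, 3.96 for AKR1B1 and 3.79 for SLC5A3, and IMPA1 was lower, at -1.14. Against epididymis, with 36.5% of genes called (1.93% higher and 34.6% lower), SORD was higher by 4.68 and SLC5A3 by 1.84, and SLC2A5, ISYNA1 and IMPA1 were lower. IMPA1 lost its call against epididymis and bulbourethral gland with size factors, at -0.49 and -0.38, and IMPA2 gained one against epididymis, at 1.48 in place of 0.49.

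**Figure D3:**
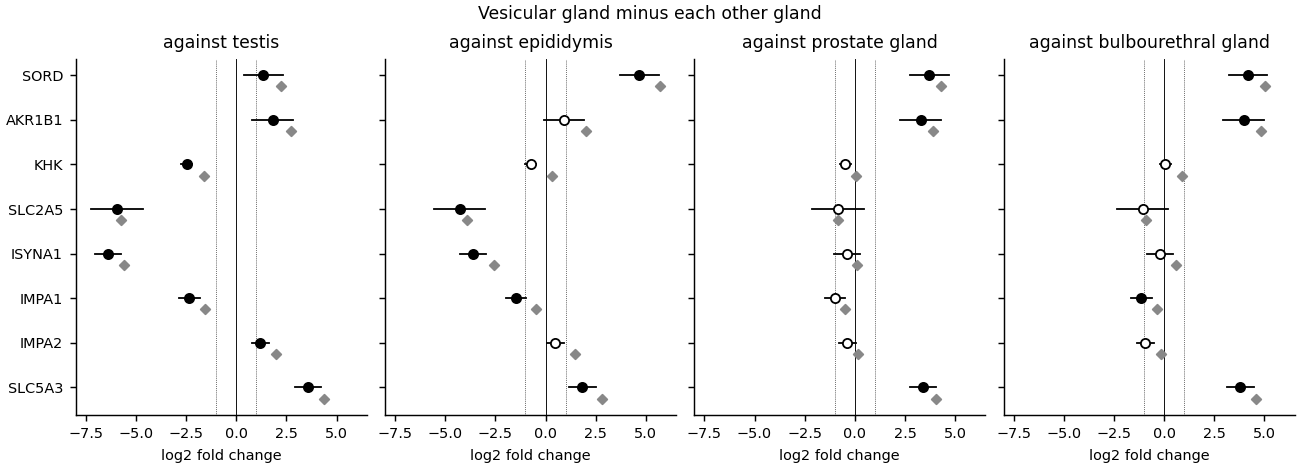
Log2 difference of vesicular gland from each other gland for the 8 genes, on TPM + 1, with 95% intervals of limma's fit over 30 libraries, filled points for called genes, open points for the rest and grey diamonds for size factors. SORD, AKR1B1 and SLC5A3 lie to the right of 0 against every gland, AKR1B1 against epididymis by 0.92 without passing the test, and ISYNA1 reaches -6.40 against testis.

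Ratios of these genes within a library do not depend on its scaling. The ratio of AKR1B1 to KHK was 15.7 to 42.9 in vesicular gland (median 26.8) and 0.638 to 1.92 in testis. The prostate ratio was 21.1 in BMI replicate 2 and had a median of 1.12 in the other 5 libraries. The ratio of ISYNA1 to IMPA1 was 16.5 to 30.6 in testis and 0.747 to 3.29 in vesicular gland. The ratio of IMPA1 to IMPA2 was 3.16 to 13.2 in testis and 0.326 to 0.832 in vesicular gland, so that the more abundant monophosphatase transcript was IMPA1 in the one and IMPA2 in the other, in every library. The ratio of SORD to AKR1B1 overlapped between vesicular gland (0.121 to 0.371) and testis (0.215 to 0.721), and epididymis had far less SORD per AKR1B1, with 0.00409 to 0.0514.

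Between breeds, AKR1B1 in vesicular gland was the gene of the 8 called in the comparison within 1 gland. Its BMI libraries held 766, 680 and 523 TPM and its DSE libraries 265, 280 and 282 TPM. The groups did not overlap. Among 12,586 genes tested in the 6 vesicular libraries 1.22% were called, 0.953% as lower in DSE, and AKR1B1 was 1 of the 7 of these genes tested, at -1.23 ± 0.23 on the log2 scale (DSE minus BMI, SE, limma adjusted p 0.025). With size factors the difference was -0.69 and did not pass (limma adjusted p 0.35), and across all settings it ran from -1.39 to -0.69 with adjusted p from 0.0213 to 0.477. The median gene lay at -0.42 in this contrast as deposited and at 0.03 with size factors. The call was lost without BMI replicate 1 (adjusted p 0.0558), BMI replicate 2 (0.0508), DSE replicate 1 (0.0810) or DSE replicate 3 (0.0539). Marker sums as deposited also separated the breeds in vesicular gland. The size factors there were 0.632, 0.953 and 0.643 in BMI and 0.385, 0.633 and 0.535 in DSE, and the sums were not divided by them. The epithelium list (5 of 5 found) summed to 1169 to 1298 TPM in BMI and 727 to 1007 TPM in DSE, and the immune list (5 of 5) to 23.0 to 42.7 TPM and 16.0 to 21.1 TPM. The Sertoli list, which includes CLU and SOX9, summed to 70.4 to 219 TPM and 25.5 to 60.4 TPM, the epididymis list (6 of 10) to 3.99 to 8.27 TPM and 0.830 to 1.73 TPM, and the skeletal muscle list (5 of 6) lay in the opposite order, with 0.299 to 2.71 TPM and 4.36 to 17.8 TPM. The part of these in the AKR1B1 difference was not tested. Whether the breed difference in vesicular gland differed from that in the other 4 glands did not pass for AKR1B1 (-1.15 ± 0.78, limma adjusted p 0.49). As deposited, SORD differed between breeds in vesicular gland by -0.39, with a 95% interval of -0.93 to 0.15. SLC5A3 differed by 0.51, with an interval of -0.07 to 1.10. Neither was called, as deposited or with size factors.

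KHK in testis showed the other breed difference. The BMI libraries held 159, 107 and 164 TPM and the DSE libraries 70.8, 57.6 and 73.2 TPM, again without overlap. Within testis, where 0.619% of 16,319 genes were called, the difference of -1.06 ± 0.26 on the log2 scale did not pass (DSE minus BMI, SE, limma adjusted p 0.154). The breed difference in testis against that in the other 4 glands, by contrast, was -1.33 ± 0.21 and passed (SE, limma adjusted p 0.000185), against 3.87% of genes called in that interaction, 3.01% as lower. In bulbourethral gland BMI held 12.2, 14.3 and 12.0 TPM of KHK and DSE 18.6, 22.2 and 19.1 TPM. These groups did not overlap either and lay in the opposite order, but the difference of 0.60 on the log2 scale did not pass (limma adjusted p 0.69). Without DSE testis replicate 2 the interaction was -1.23 (adjusted p 0.000785) and the within-testis difference -0.96 (adjusted p 0.0699). Germ cell markers (7 of 7 found) summed to 76,261 to 95,151 TPM in BMI testis and 25,546 to 117,007 TPM in DSE, so these ranges overlapped. DSE testis replicate 2 held the fewest of them and the lowest KHK level of testis. Leydig cell markers (3 of 4 found) summed to 17,754 to 20,574 TPM in BMI testis and 23,153 to 61,438 TPM in DSE, and Sertoli cell markers (4 of 4) to 992 to 1198 TPM and 1260 to 3652 TPM. The lists of smooth muscle (5 of 5 found, 92.0 to 101 TPM in BMI and 104 to 164 TPM in DSE), prostate and bulbourethral epithelium (3 of 4, 39.1 to 51.6 TPM and 61.0 to 145 TPM) and epididymis (6 of 10, 9.52 to 15.3 TPM and 7.90 to 9.45 TPM) did not overlap between the breeds either. The part of these 5 lists and of the germ cell list in the KHK difference was not tested beyond leaving replicate 2 out.

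**Figure D4:**
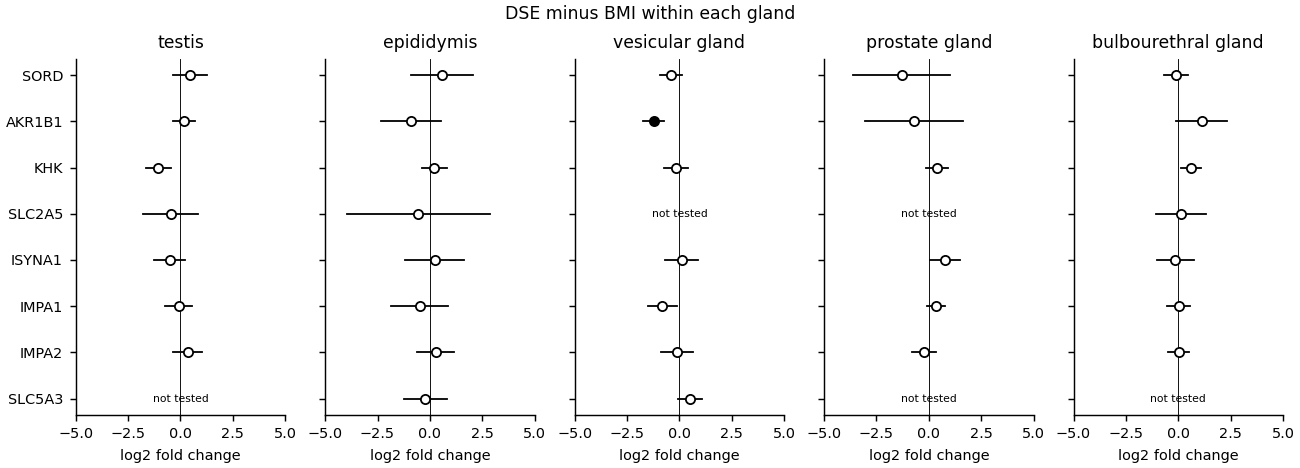
Log2 difference of DSE minus BMI for the 8 genes within each gland, on TPM + 1, with 95% intervals of limma's fit over the 6 libraries of the gland, a filled point where called and open points elsewhere. AKR1B1 in vesicular gland, at -1.23, is the called gene, and KHK in testis lies at -1.06 without passing.

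Groups that do not overlap were common among all genes, at 39.8% of those tested in prostate gland, 27.9% in vesicular gland, 24.8% in testis, 10.7% in bulbourethral gland and 5.31% in epididymis. In vesicular gland DSE lay wholly below BMI for 3296 of 12,586 genes and wholly above for 217. Prostate gland had 243 below and 5100 above of 13,416, and testis 2792 below and 1257 above of 16,319. Bulbourethral gland had 763 below and 702 above of 13,675, and epididymis 394 and 418 of 15,302. Among the tested genes of the 8, DSE lay wholly below BMI for KHK and ISYNA1 in testis and for AKR1B1 and IMPA1 in vesicular gland. It lay wholly above for KHK in epididymis and bulbourethral gland, SLC5A3 in vesicular gland and IMPA1 in prostate gland. Of these 8 sets only AKR1B1 was called.

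In the other comparisons of breeds limma called none of the 8. In epididymis it called 0% of 15,302 genes, with 290 at an unadjusted p below 0.05, in prostate gland 0.358% of 13,416 with 4502, and in bulbourethral gland 0.0219% of 13,675 with 762. In testis, with 0 of the 7 tested called, 2226 genes had an unadjusted p below 0.05. In prostate gland without BMI replicate 2, 7.06% of genes were called but none of the 8, and AKR1B1 moved from -0.69 to 0.62 on the log2 scale and SORD from -1.30 to 0.02. The sign of both values in prostate gland thus turned with that single library. For the breed difference in 1 gland against that in the other 4, limma also called 0 of the 8 in epididymis (0.157% of 19,786 genes called, 1256 at an unadjusted p below 0.05), vesicular gland (0.192%, 2462), prostate gland (0.187%, 2751) and bulbourethral gland (0.0910%, 580).

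The full-length reads of Iso-seq, with 231,413 to 458,697 reads a library and no replicates, measured the same genes by a different technique. SORD had 283 reads in BMI and 179 in DSE vesicular gland, or 963 (95% exact Poisson interval 854 to 1082) and 563 (483 to 651) per 1000000 reads. AKR1B1 had 271 and 291 reads, or 923 (816 to 1039) and 915 (813 to 1026) per 1000000. The lower AKR1B1 level of DSE in the RNA-seq libraries did not appear in these reads, as the intervals overlap. SLC5A3 had 60 and 53 reads, or 204 (156 to 263) and 167 (125 to 218) per 1000000, and the BMI epididymis library, with 95 reads, lay in the same range, while DSE epididymis, with 6 reads or 25.9 (9.52 to 56.4), lay below it. These intervals cover counting error only. In prostate gland the BMI library held 234 SORD, 153 AKR1B1 and 92 SLC5A3 reads and the DSE library 4, 3 and 0. The count of 0 was taken to allow up to 3 reads, or 8.93 per 1000000 in that library. This bound is lower than the upper end of the exact 95% Poisson interval for the same count. The BMI prostate library is the one with the spermadhesin reads. ISYNA1 had 53 and 76 reads in testis and 1 and 0 in vesicular gland, and DSE epididymis held 58, or 251 (190 to 324) per 1000000, above the 117 (87.3 to 152) and 166 (131 to 208) of BMI and DSE testis. The intervals of DSE epididymis and DSE testis overlap, though. BMI epididymis, with 14 ISYNA1 reads or 30.5 (16.7 to 51.2) per 1000000, lay below BMI testis. In the RNA-seq libraries testis was the highest for ISYNA1 in both breeds. SLC2A5 had 41 and 122 in testis and 0 and 1 in vesicular gland.

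**Figure D5:**
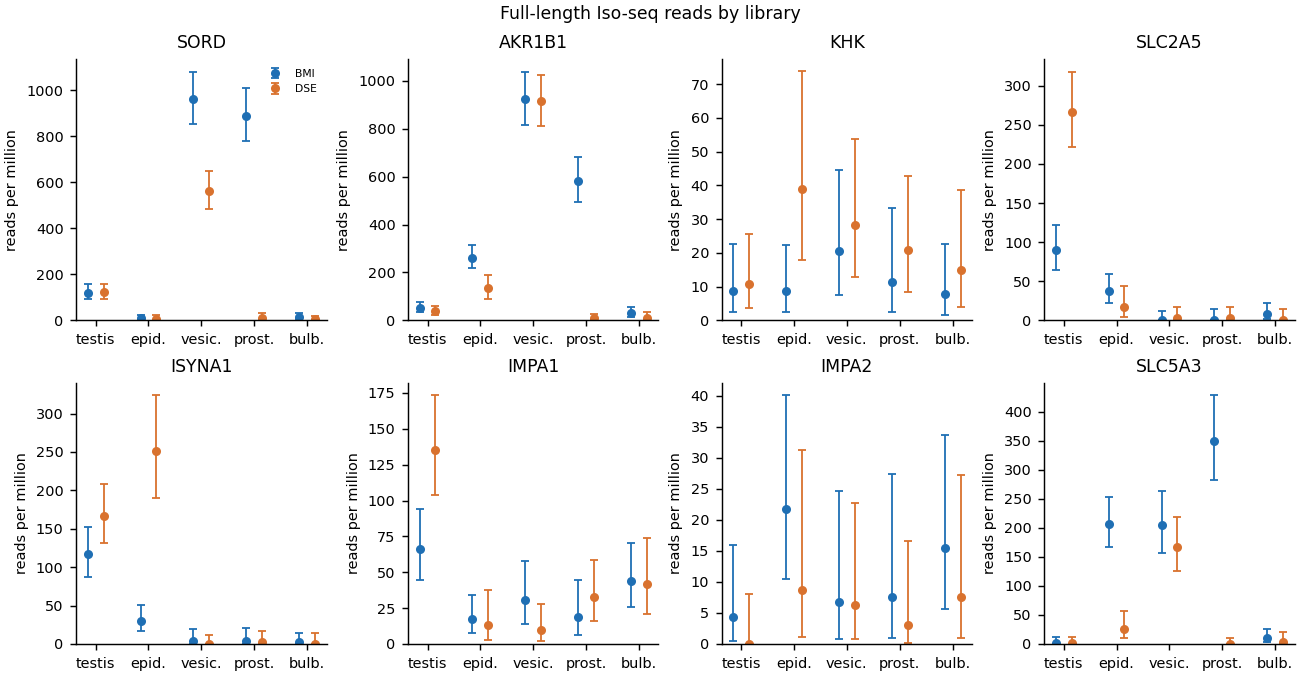
Full-length Iso-seq reads per 1000000 of the 8 genes in the 10 libraries, with exact 95% Poisson intervals, 1 library per breed and gland. SORD reaches 963 and 563 in vesicular gland and 889 in the BMI prostate library, beside 4 reads in the DSE prostate library.

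A single isoform carried most reads of SORD and of AKR1B1. The isoform with the most SORD reads carried 568 of 824 (68.9%), was 6043 bases long with 9 exons and had an open reading frame of 356 residues. In the short reads it carried 6.22% of vesicular SORD TPM on average, and another isoform, of 10 exons, predicted as a target of nonsense-mediated decay and with 79 full-length reads, carried 76.4% ± 8.17 (SD, n = 6). No SORD, SLC2A5 or SLC5A3 read belonged to an isoform whose splicing matches the annotation in full or in part, against 816 of 925 for AKR1B1. The main AKR1B1 isoform, with 805 reads (87.0%), was 1364 bases long with 10 exons and a frame of 316 residues, and began 50,018 bases downstream of the start of the annotated transcript it matches in part. That isoform is not among the transcripts quantified from short reads, where 70.9% ± 6.0 (SD, n = 6) of vesicular AKR1B1 TPM fell on the longer annotated transcript. SLC5A3 had a single quantified transcript, of 12,108 bases with a frame of 718 residues, whose first exon begins where isoforms of its neighbour MRPS6 begin, so reads from that stretch could come from either gene. Over the 10 groups of breed and gland, the Pearson correlation of mean RNA-seq level with Iso-seq level was 0.916 for SORD, 0.818 for AKR1B1, 0.807 for SLC5A3, 0.921 for ISYNA1, 0.887 for SLC2A5, 0.679 for IMPA1, 0.359 for IMPA2 and -0.263 for KHK. KHK had at most 9 reads a library and IMPA2 at most 10. The KHK reads of BMI and DSE were 4 and 5 in testis and 6 and 9 in vesicular gland. At these low counts the high testis level of KHK in the RNA-seq libraries did not appear.

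Most other genes of these pathways were not called higher in vesicular gland, where the share of all genes was 2.95% higher and 30.1% lower. Among genes of polyol and fructose metabolism, 15 of 17 were tested in vesicular gland against the other 4, and 2 were higher, SORD and AKR1B1. 3 were lower, among them CRYL1, the gulonate dehydrogenase, at -1.39, and the aldolase ALDOA, at -1.18. The median of the list was -0.64, beside -0.69 for all genes tested. Of 16 hexose carriers and kinases tested (of 21 listed), 0 were higher and 6 lower, including SLC2A5, hexokinase 2 (HK2, -2.39) and the sodium/glucose carrier SLC5A1 (-1.54), with a median of -0.77, so the share called lower was near that of all genes. Of 13 genes of inositol synthesis, transport and breakdown (of 14), SLC5A3 was higher and 5 were lower, among them ISYNA1, the proton/inositol carrier SLC2A13 (-2.07) and CDS2 (-1.78), which makes the CDP-diacylglycerol used with inositol for phosphatidylinositol. The median was -0.79.

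Of 21 inositol phosphate kinases and phosphatases (of 23), 0 were higher and 7 lower, again near the 30.1% of all genes. They included the phosphatases INPP4A (-2.02) and INPP5D (-1.44), the kinase ITPKC (-1.42) and NUDT3 (-1.28), and the median was -0.72. Of 10 osmolyte and tonicity genes (of 11), SLC5A3 and AKR1B1 were higher, the taurine carrier SLC6A6 lower at -1.99, and the median was -0.47. With size factors, where 7.41% of 19,548 genes were higher and 12.2% lower, the counts of higher and lower genes were 4 and 0 for polyol and fructose, 2 and 3 for hexose carriers and kinases, 1 and 3 for inositol, 0 and 1 for inositol phosphates and 2 and 1 for osmolytes, with fewer lower calls than as deposited in each list but the last. SORD, AKR1B1 and SLC5A3 stayed higher in both. Between breeds in vesicular gland, SLC5A1 was lower in DSE at -1.85 ± 0.36 on the log2 scale (SE, limma adjusted p 0.0278), and AKR1B1 was the other list gene called. With size factors no gene of the 5 lists was called in that comparison.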

How the data were processed

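The 8 genes and the pathway lists were chosen with earlier results of these data known. RNA was sequenced from 5 glands of 2 breeds in 30 short-read libraries and 10 Iso-seq libraries. The labels name rRNA depletion and the study's methods poly-T beads, which could change the balance of transcripts. The authors mapped short reads to Iso-seq and Ensembl transcripts of Sscrofa11.1 with Salmon 1.9.0 and deposited TPM, scaled to the total of all transcripts and per length, so a library in which a few secretory transcripts take much of the total gives lower values for the rest. TPM keeps no read depth, so no counting error could be given for short reads. The authors also deposited full-length read counts of Iso-seq isoforms, with 231,413 to 458,697 reads a library.

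From these, TPM was summed by gene name over 133,722 transcripts, leaving out 3036 of joined gene labels. Genes with at least 1 TPM in 3 libraries were fitted as log2(TPM + 1) with limma 3.58.1 (R 4.3.3, trend) in 10 groups, or in the 6 libraries of a gland for breeds, with Benjamini-Hochberg adjustment over all genes tested. Fold changes of low genes are understated by the pseudocount. Samples were grouped by breed and gland from the labels. Named genes were the 8, pathway members called in vesicular gland (at most 4 a list, by fold, with 1 not reported here), and for each of the 8 the 2 genes most correlated with it. Alternatives were the pseudocount, the filter, size factors, no trend, one fit of 30 libraries for breeds, Ensembl transcripts alone, joined labels added, a replicate block and each library left out. Most alternatives of the interaction, and size factors without BMI prostate replicate 2, were added after seeing the data. On simulated data with a planted log2 difference of 2, 99% of 200 genes were recovered in vesicular gland against the other 4, 67.5% between breeds in that gland and 76.5% in its interaction. With a planted difference of 1, 50% and 0% were recovered in the first 2 of these. Sequences came from the RefSeq genome with samtools 1.23.1.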

Additional observations from a re-analysis of the deposited data

Results flagged for a closer look

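In 9 of the 40 sets of 6 libraries (8 genes in 5 glands), a single library lay farther from the rest than Dixon's 95% critical value for 6 values allows, where chance flags about 1 set in 20. BMI prostate gland replicate 2 gave 3 of these: SORD at 78.1 TPM against 3.10 to 5.31 TPM in the other 5, AKR1B1 at 340 TPM against 19.6 to 48.8 TPM, and SLC5A3 at 8.82 TPM against 0.352 to 0.780 TPM. This is the library with 295,241 TPM of spermadhesins. DSE testis replicate 2 gave another 3: SORD at 79.8 TPM against 26.3 to 41.3 TPM, IMPA2 at 7.37 TPM against 3.10 to 3.76 TPM, and SLC5A3 at 1.46 TPM against 0.724 to 0.910 TPM. It held 25,546 TPM of germ cell markers, less than the other testis libraries, and the part of this in the 3 values was not tested.

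The other 3 were in different libraries. AKR1B1 in epididymis was 655 TPM in BMI replicate 2, against 88.2 to 271 TPM. That library held 34,174 TPM of epididymis markers (6 of 10 found), among them 9677 TPM of LCN8 and 10,294 TPM of RNASE10, which were at no more than 21.2 and 20.1 TPM in the other 5. IMPA1 in epididymis was 5.33 TPM in DSE replicate 1, against 19.5 to 25.9 TPM, and this library held 25,189 TPM of epididymis markers against 1578 to 6435 TPM in the 4 libraries other than these 2. Its members differed in direction, with SPAG11 at 23,453 TPM, the most of the 6, CRISP1 at 21.3 TPM against 1100 to 2759 TPM, and LCN8 at 5.78 TPM. SLC2A5 in bulbourethral gland was 4.26 TPM in DSE replicate 3, against 0.0825 to 1.44 TPM, and this library held 1162 TPM of skeletal muscle markers (5 of 6 found) against 0 to 353 TPM. The part of these markers and of transcript integrity in the 3 values was not tested.

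The breed difference of KHK differed between glands. It was -1.33 on the log2 scale for testis against the other 4 glands (DSE minus BMI, SE 0.21, limma adjusted p 0.000185), and the 38 alternatives gave -1.53 to -1.22, past the threshold in each.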

How the results depend on the processing

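The vesicular calls of SORD, AKR1B1 and SLC5A3 against the other 4 glands held in every alternative run, as did the KHK interaction. SLC5A3 has no value with Ensembl transcripts alone, since its quantified transcript comes from Iso-seq. The count of called genes among the 8 moved by over 1.5 times as follows. With a pseudocount of 0.1, vesicular against prostate gland gave 5 in place of 3. Between breeds in vesicular gland 0 in place of 1 were called with no filter, size factors, no trend, Ensembl transcripts alone or 1 fit of 30 libraries, and in testis 1 in place of 0 in the fit of 30 (KHK, limma adjusted p 0.000514). With Ensembl transcripts alone the counts were 3 in place of 7 for testis and 2 in place of 5 for prostate gland against the other 4, 3 in place of 5 for testis against epididymis, 5 in place of 8 for vesicular gland against testis, 3 in place of 7 for testis against prostate gland, 4 in place of 7 for testis against bulbourethral gland, 3 in place of 5 for vesicular gland against epididymis and 2 in place of 4 for vesicular against bulbourethral gland. In that setting SORD in testis against the other 4 turned to -0.16, SLC2A5 in testis to -0.10 and SLC2A5 in testis against epididymis to -1.51. The cause was not tested. Leaving out 1 library gave 0 to 1 called between breeds in vesicular gland and 3 to 5 in prostate gland against the other 4, where SORD and SLC5A3 lost their calls without BMI replicate 1 or 3. Counting known Iso-seq isoforms alone left 0 reads of SORD, 816 of AKR1B1, 26 of KHK, 0 of SLC2A5, 8 of ISYNA1, 2 of IMPA1, 2 of IMPA2 and 0 of SLC5A3. Same-numbered libraries correlated, as deviations from group means, at -0.555 to 0.375 over 15 pairs of breeds (4 over 0.1) and -0.302 to 0.390 over 60 pairs of glands (21 over 0.1). All 3 pairs passed 0.1 for epididymis and vesicular gland (0.229 to 0.390) and for testis and vesicular gland (0.150 to 0.291) of DSE, but in BMI the same glands did not, so the numbers were not taken to pair the libraries. A replicate block left AKR1B1 between breeds in vesicular gland at -1.23 (limma adjusted p 0.0224) and KHK called in the interaction (0.000665), and changed no other call.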

Other observations

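Over the 30 libraries, log2(TPM + 1) of AKR1B1 and SLC5A3 correlated at 0.787 (Pearson), AKR1B1 and SORD at 0.592, and SORD and SLC5A3 at 0.535. KHK, SLC2A5, ISYNA1 and IMPA1 correlated at 0.719 to 0.893 with each other, and IMPA2 at -0.826 with ISYNA1. The points share glands and libraries, so these values describe the gland pattern and carry no test.

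Among 13,900 named genes, those whose level ran closest to SLC5A3 were SLC9A3, a sodium/proton exchanger (0.964), and NPPC, the precursor of C-type natriuretic peptide (0.953). For SORD they were IL31RA, an interleukin receptor subunit (0.954), and WDPCP (0.904), and for AKR1B1 the purine nucleoside phosphorylase PNP (0.922) and the cysteine dioxygenase CDO1 (0.913). ISYNA1 ran with ARL2 (0.973) and DPY19L2 (0.970), KHK with TTC21A (0.953) and LRAT (0.951), SLC2A5 with OTUD6A (0.960) and FGF14 (0.948), IMPA1 with UBE2V1 (0.953) and ASH2L (0.952), and IMPA2 with MICALL2 (0.920) and GGCX (0.918).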
